A study of Mus musculus with 6 samples.

Results

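DEAD- and DEAH-box RNA helicases are enzymes that use ATP to open RNA duplexes and to move proteins on or off RNA, and they are named after the amino acids of a conserved ATP-binding motif. Each step of gene expression that rearranges RNA has its own set of them: nucleolar helicases free small nucleolar RNAs from the precursors of the ribosomal subunits, spliceosomal helicases drive the spliceosome from one state to the next, and others act in messenger RNA export, scanning by the small ribosomal subunit, repression and decay. A growing cell makes ribosomes at a high rate, so the nucleolar members are usually read together with cell growth. The members described here were taken by name, as every gene in the deposited tables whose symbol begins with Ddx or Dhx followed by a digit. Ddx3x, Ddx3y, Ddx58 and Dhx58 were left out by that rule. This gave 49 genes of 18059 in the tables, of which 45 passed a filter on low counts and were tested.

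The genes were measured by RNA sequencing in primary cardiac fibroblasts, the connective tissue cells of the heart, isolated from C57BL/6 mice aged 1 to 2 weeks and grown in 15% serum. In 3 libraries the cells had been given PDGF-DD for 12 hours, and in the 3 control libraries they had been given saline for the same time. PDGF-DD is a secreted growth factor that acts mainly through the receptor tyrosine kinase PDGFRβ. Its dose is written as 20 µM in the labels, which would be very high for a growth factor, so that unit is doubtful. The protocols state that all cells came from mice lacking PDGF-D throughout the body, whereas the genotype field calls the control samples control and the PDGF-DD samples PDGF-D -/-. If that field is right, genotype and treatment cannot be told apart. The labels do not state that replicates are different cultures or mice, and the p-values therefore reflect only how far these libraries spread, which may be technical.

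The libraries held between 21221114 and 21371829 estimated read counts. Reads assigned to Pdgfd were present in every library, with 69 to 82 counts in the PDGF-DD libraries and 91 to 118 in the control libraries, a fall with PDGF-DD (log2 fold change -0.55, edgeR adjusted p = 0.00245). Over the whole gene such counts do not show whether its deleted part was lost. Control replicate 1 stood somewhat apart, and its counts differed from the other control libraries by 5.11 and 5.70 chi-square units per gene, while pairs of PDGF-DD libraries differed by 1.90 to 2.74 and the other control pair by 2.48. All 10 fibroblast markers were detected, at a summed level of 18701 to 19018 TPM (a measure of level that is corrected for transcript length and library size) in the PDGF-DD libraries and 20341 to 22317 TPM in the control libraries. Of those markers 7 were called lower and 1 higher with PDGF-DD in edgeR. Over all tested genes 17.4% were called lower and 19.1% higher, which are the shares to set beside each marker list. Cardiomyocyte markers summed to between 222 and 251 TPM in the PDGF-DD libraries and between 311 and 335 TPM in the control libraries, nearly all of it from Tnnt2, and 3 of 6 tested were lower. Myh7 was too low to test, with at most 2.61 counts in any library of either group. Endothelial markers summed to 137 to 141 TPM in the PDGF-DD libraries and 142 to 158 TPM in the control libraries, with 1 of 6 lower (16.7%, near the share over all tested genes). Leukocyte markers summed to 94.4 to 105 TPM in the PDGF-DD libraries and 102 to 115 TPM in the control libraries, with none of 7 called. Mesothelial markers summed to 39.6 to 44.6 TPM in the PDGF-DD libraries and 45.2 to 50.9 TPM in the control libraries, with 1 of 4 lower, and smooth muscle or pericyte markers to 6.89 to 7.8 TPM in the PDGF-DD libraries and 11.9 to 14.5 TPM in the control libraries, with 2 of 3 lower. The part of these other cells in the results on helicases was not tested, and in such bulk samples fewer cells of a type and less RNA per cell cannot be told apart.

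Helicase transcripts were more abundant with PDGF-DD, by small amounts and across many members. Of the 45 tested genes 27 rose and none fell, where a gene counts as changed at an adjusted p under 0.05 in edgeR's quasi-likelihood test over all genes. Those 27 are 60% of the tested members, against 19.1% of all 13270 tested genes called higher, 17.4% called lower and 36.5% called in either direction. At an unadjusted p under 0.05, 28 members were higher and 1, Ddx17, was lower. At that threshold 2895 of the 13270 tested genes were lower, the count to set beside each class below. Genes higher at it were not counted over all genes. DESeq2 called 23 members higher and none lower, and limma on TPM values 22 higher and none lower. The median log2 fold change of the 45 members was 0.17, beside -0.01 over all tested genes, and 39 of 45 had a positive value. The risers changed between 1.08-fold for Ddx5 and 1.39-fold for Ddx11, and 449 of the 13270 tested genes had a larger positive change than Ddx11. Read by library, in 29 members each PDGF-DD library lay above each control library, in 2, Ddx17 and Dhx35, each lay below, and 14 overlapped. Over all tested genes 23.6% lay fully above and 23.5% fully below.

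**Figure D1:**
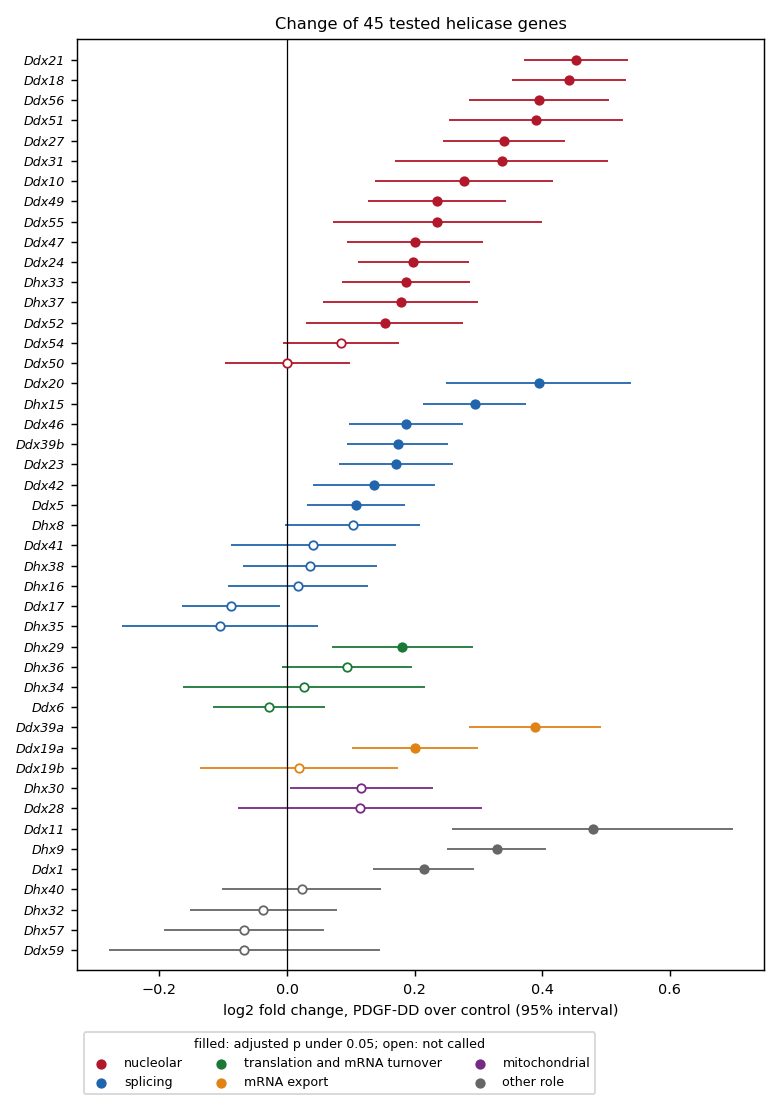
Log2 fold change of PDGF-DD over control for the 45 tested helicase genes, grouped by role, with 95% intervals from edgeR. Filled points passed at an adjusted p under 0.05 (27 genes, all positive) and open points did not (18 genes, between -0.11 and 0.12).

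The summed level of all 49 members was between 2451 and 2541 TPM in the PDGF-DD libraries and between 2159 and 2269 TPM in the control libraries, a mean of 2503 ± 46.9 TPM with PDGF-DD and 2232 ± 63.5 TPM in control (SD, n = 3 each). The groups did not overlap. A few genes carried much of this sum: Ddx5 alone held 12.8% of it, and the 5 most abundant members, Ddx5, Ddx39b, Ddx17, Ddx1 and Dhx15, held 40.9%. Ddx5 stood at 314 ± 7.98 TPM with PDGF-DD and 293 ± 7.18 TPM in control, Ddx39b at 243 ± 1.37 TPM with PDGF-DD and 217 ± 5.85 TPM in control, and Ddx17 at 164 ± 5.37 TPM with PDGF-DD and 176 ± 4.22 TPM in control (SD, n = 3 each). The lowest tested member was Ddx11, at 6.52 ± 1.04 TPM with PDGF-DD and 4.73 ± 0.301 TPM in control. Size of change and level were only loosely related, with a Spearman rho of 0.18 between log2 fold change and mean TPM across the 45 tested genes, which are not independent replicates.

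**Figure D2:**
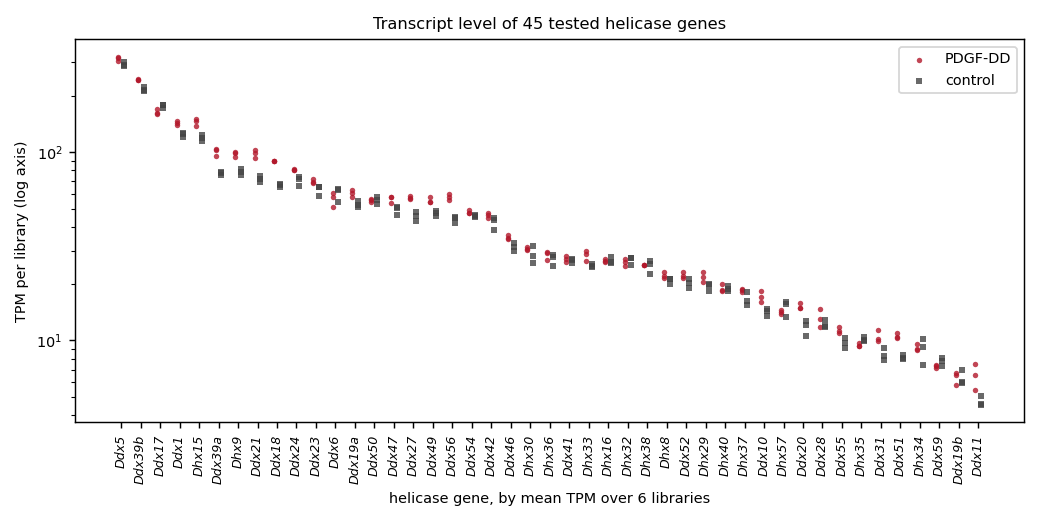
TPM of each tested helicase gene in each library on a log axis, ordered by the mean over 6 libraries, with PDGF-DD libraries as red circles and control libraries as grey squares. Ddx5 is the highest and Ddx11 the lowest, and the gaps between the groups are small beside the range between genes.

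The 4 members left out by the filter on low counts had few reads. Ddx4, Ddx25 and Ddx43 are known from germ cells. Ddx4 had 2 to 5 counts per library, Ddx25 had 3 to 13 and Ddx43 had 0 to 2. Ddx60, an antiviral gene induced by interferon in other settings, had 1 to 11. With no filter, edgeR called none of the 4 (adjusted p from 0.493 to 0.779, and none under 0.05 unadjusted), with 95% intervals of the log2 fold change as wide as -4.13 to 2.53 for Ddx43 and -1.58 to 0.47 for Ddx25.

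The nucleolar helicases rose nearly throughout. Of 16 members 14 rose and none fell (87.5% higher, against 19.1% of all tested genes), at a class median of 0.24 on the log2 scale. At an unadjusted p under 0.05 none of them was lower. Their summed level was 718 ± 9.88 TPM with PDGF-DD and 600.2 ± 15.0 TPM in control (SD, n = 3 each). Without control replicate 1, 11 of the 16 rose, as in DESeq2.

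The member of this class with the smallest p was Ddx21, a helicase that couples transcription by RNA polymerase I to processing of ribosomal RNA. In CPM, counts scaled to library size, it had 203, 195 and 211 CPM in the PDGF-DD libraries, against 148, 151 and 147 CPM in the control libraries. All PDGF-DD libraries were above all control libraries, a rise of 1.37-fold (log2 fold change 0.45 ± 0.04 SE, adjusted p = 1.34e-09 in edgeR). Its close relative Ddx50 lies next to it on chromosome 10, with no protein-coding gene between them in the RefSeq annotation, and did not pass the test. Ddx50 had 63.5, 62.8 and 63.8 CPM in the PDGF-DD libraries, against 65.3, 64.9 and 59.8 CPM in the control libraries, with overlapping groups (log2 fold change 0.00067 ± 0.05 SE, adjusted p = 0.992 in edgeR; 95% interval -0.10 to 0.10). The log2 ratio of Ddx21 to Ddx50 counts was 1.68, 1.64 and 1.73 in the PDGF-DD libraries, against 1.18, 1.21 and 1.29 in the control libraries, a difference of 0.45. That ratio was higher in each PDGF-DD library than in each control library, and the exact two-sided permutation test over the 6 libraries gave p = 0.1, the smallest it can give with 3 against 3 (0.133 adjusted over 4 gene pairs). Their promoter windows are shown because the genes adjoin and only Ddx21 passed the edgeR test. Each covers 250 bases before to 50 after an annotated start in RefSeq (GRCm38.p6, minus strand), chr10:62602249-62602548 for Ddx21 and chr10:62651169-62651468 for Ddx50. Capitals mark the GC box GGGCGG and the ETS core CCGGAAG, on either strand.
Ddx21: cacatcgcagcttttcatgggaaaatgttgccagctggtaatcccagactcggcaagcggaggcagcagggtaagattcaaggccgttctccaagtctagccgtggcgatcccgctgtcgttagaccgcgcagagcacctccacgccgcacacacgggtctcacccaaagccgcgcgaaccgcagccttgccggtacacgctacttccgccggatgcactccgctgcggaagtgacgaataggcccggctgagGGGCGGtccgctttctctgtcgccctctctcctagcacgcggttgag
Ddx50: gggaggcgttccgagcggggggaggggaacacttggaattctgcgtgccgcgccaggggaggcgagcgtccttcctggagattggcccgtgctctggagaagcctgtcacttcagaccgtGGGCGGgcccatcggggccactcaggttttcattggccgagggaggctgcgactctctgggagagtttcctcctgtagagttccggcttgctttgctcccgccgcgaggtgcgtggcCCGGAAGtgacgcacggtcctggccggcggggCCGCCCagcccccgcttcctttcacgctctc
The Ddx21 window held 1 GC box and no exact match to CCGGAAG, and the Ddx50 window 2 GC boxes and 1 such match. A second annotated start of Ddx50 held neither, and none of these windows held the E box CACGTG. Only the exact string CCGGAAG was counted as an ETS core. The Ddx21 window does hold the shorter CGGAAG on both strands, so this difference depends on the letters chosen.

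Helicases were put under the large ribosomal subunit after their yeast counterparts, each in a single subgroup even if it acts on both subunits. This subgroup included most of the larger nucleolar changes. Of 8 genes 7 rose (87.5%, against 19.1% of all tested genes called higher), their median being 0.34 on the log2 scale. In all 8 the PDGF-DD libraries lay above the control libraries, against 23.6% of all tested genes. Ddx18, the counterpart of yeast Has1, had 86.0, 88.6 and 86.8 CPM in the PDGF-DD libraries, against 65.1, 63.8 and 63.6 CPM in the control libraries (1.36-fold; log2 fold change 0.44 ± 0.04 SE, adjusted p = 1.03e-08 in edgeR). Ddx56, the counterpart of yeast Dbp9, had 48.0, 50.9 and 51.4 CPM in the PDGF-DD libraries, against 40.0, 35.9 and 38.4 CPM in the control libraries (1.31-fold; log2 fold change 0.39 ± 0.05 SE, adjusted p = 1.6e-06 in edgeR). Replicates of either gene spread far less than the groups differed. Ddx27, the counterpart of yeast Drs1, had 63.8, 64.4 and 65.1 CPM in the PDGF-DD libraries, against 49.7, 52.5 and 50.4 CPM in the control libraries (1.27-fold; log2 fold change 0.34 ± 0.05 SE, adjusted p = 2.05e-06 in edgeR). Ddx51, the counterpart of yeast Dbp6, and Ddx31, the counterpart of Dbp7, were much less abundant per length and also rose. Ddx51 had 21.8, 22.2 and 22.9 CPM in the PDGF-DD libraries, against 17.3, 17.2 and 16.6 CPM in the control libraries (log2 fold change 0.39 ± 0.07 SE, adjusted p = 4.04e-05 in edgeR), and Ddx31 rose by 0.34 (edgeR adjusted p = 0.00172). Ddx24 rose by 0.20 and Ddx55 by 0.24 on the log2 scale, the 2 values passing at edgeR adjusted p = 0.000556 and 0.0218. DESeq2 did not call Ddx55 (adjusted p = 0.12), nor did edgeR when control replicate 1 (0.0594) or 2 (0.0678) or PDGF-DD replicate 2 (0.0903) was left out, while its smallest value over the alternatives was 0.0164. Ddx54 was the member of this subgroup that did not pass: it had 80.3, 85.6 and 81.2 CPM in the PDGF-DD libraries, against 79.2, 77.5 and 76.3 CPM in the control libraries (log2 fold change 0.08, edgeR adjusted p = 0.143).

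Helicases of the small subunit had a lower median than those of the large subunit, a difference that was not tested. All 5 rose, against 19.1% of all tested genes called higher, with log2 fold changes from 0.15 for Ddx52 to 0.28 for Ddx10 and a median of 0.20. Ddx10 had 26.5, 23.7 and 24.9 CPM in the PDGF-DD libraries, against 21.5, 21.1 and 19.4 CPM in the control libraries (edgeR adjusted p = 0.00205). Ddx49 rose by 0.24 and Ddx47 by 0.20 (edgeR adjusted p = 0.000865 and 0.00314). Dhx37, which releases the U3 small nucleolar RNA from the precursor of the small subunit, rose by 0.18 (edgeR adjusted p = 0.0189). It lost its call in DESeq2 (0.0682), in limma (0.11 and 0.112 at a pseudocount of 0.1 and 1 TPM) and without control replicate 1 (0.0625) or 2 (0.075), against a lowest adjusted p of 0.00727 over its alternatives. Ddx52 passed narrowly (edgeR adjusted p = 0.0463) and failed in 10 of 15 alternatives, with adjusted p from 0.032 to 0.145. Without control replicate 1, as in DESeq2 and limma, 3 of the 5 small-subunit genes rose. Dhx33, a further nucleolar helicase, rose by 0.19 (edgeR adjusted p = 0.00364).

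**Figure D3:**
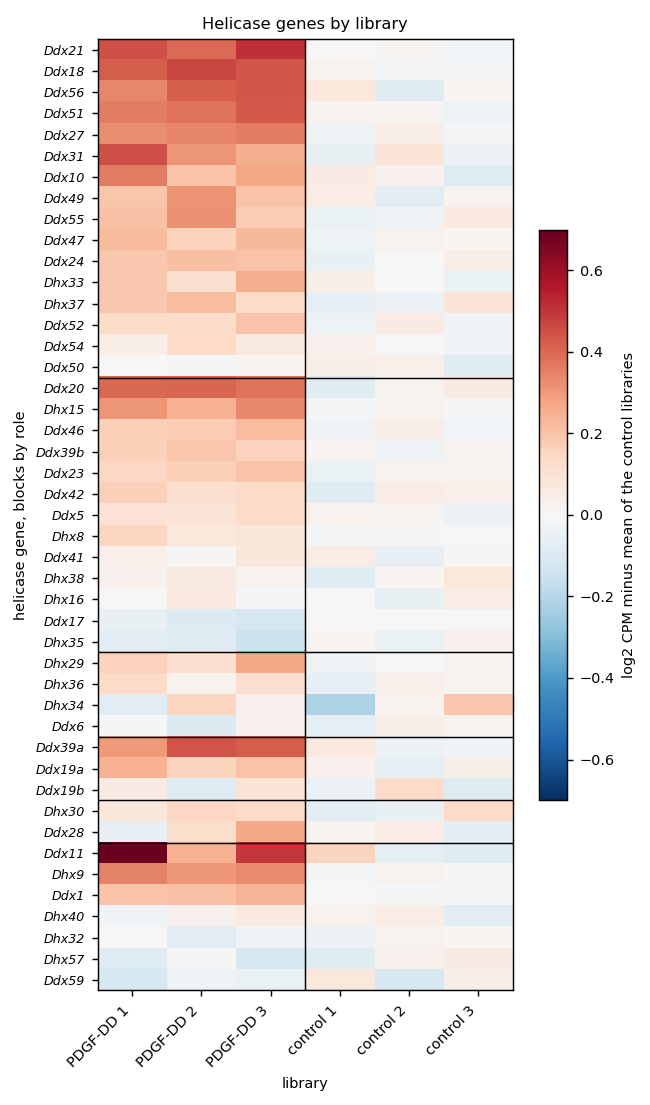
Log2 CPM (counts scaled to library size with TMM factors) of each tested helicase gene in each library, minus the mean of the control libraries for that gene, with PDGF-DD libraries on the left. Black lines separate, from the top, nucleolar, splicing, translation and turnover, export, mitochondrial and other genes, and the top block is redder in the PDGF-DD libraries than the 2 blocks under it.

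Splicing helicases were split. Of 13 genes 7 rose and none fell in edgeR (53.8% higher, against 19.1% of all tested genes), at a class median of 0.11 on the log2 scale and with Ddx17 lower at an unadjusted p under 0.05. Their summed level, 1143 ± 22.02 TPM with PDGF-DD and 1062 ± 28.9 TPM in control (SD, n = 3 each), was the highest of the classes, and Ddx5, Ddx39b and Ddx17 belong to it. The largest rises were those of Ddx20 and Dhx15. Ddx20, also called Gemin3, is a subunit of the SMN complex that assembles small nuclear ribonucleoproteins, and had 19.0, 19.0 and 18.6 CPM in the PDGF-DD libraries, against 13.5, 14.6 and 15.0 CPM in the control libraries (1.31-fold; log2 fold change 0.39 ± 0.07 SE, adjusted p = 7.45e-05 in edgeR). Dhx15, which takes spent spliceosomes apart and in yeast also acts on pre-ribosomes, had 193, 184 and 196 CPM in the PDGF-DD libraries, against 155, 158 and 154 CPM in the control libraries (1.23-fold; log2 fold change 0.29 ± 0.04 SE, adjusted p = 1.26e-06 in edgeR). In both genes the groups were well apart.

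The other splicing helicases act at steps from assembly of the spliceosome to release of the spliced RNA. Ddx39b (UAP56), Ddx46 (Prp5 in yeast) and Ddx23 (Prp28) act as the spliceosome is built up. Ddx39b had 174, 177 and 174 CPM in the PDGF-DD libraries, against 157, 151 and 158 CPM in the control libraries (log2 fold change 0.17 ± 0.04 SE, adjusted p = 0.000755 in edgeR), Ddx46 had 87.0, 87.8 and 90.3 CPM in the PDGF-DD libraries, against 76.3, 80.0 and 76.5 CPM in the control libraries (log2 fold change 0.19 ± 0.04 SE, adjusted p = 0.00127 in edgeR), and Ddx23 rose by 0.17 (edgeR adjusted p = 0.0029). Ddx42, which binds the SF3b complex, rose by 0.14 (edgeR adjusted p = 0.0222), but not in DESeq2 (0.0546), limma (0.142 and 0.146), with the replicate number as a block (0.0516) or without control replicate 1 (0.104) or PDGF-DD replicate 1 (0.0659), with a lowest value of 0.0132. Dhx16 (Prp2), Dhx38 (Prp16) and Dhx8 (Prp22) drive activation, the second step and release of the spliced RNA, and had log2 fold changes of 0.02, 0.04 and 0.10 (edgeR adjusted p = 0.829, 0.622 and 0.121). Their 95% intervals reached up to 0.13, 0.14 and 0.21, and only that of Dhx8 included a rise as large as the 0.19 of Ddx46. Ddx41 and Dhx35, both found in the catalytic spliceosome, had log2 fold changes of 0.04 and -0.11 and did not pass either.

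The pair Ddx5 and Ddx17, which act in splicing, microRNA processing and transcription, had differences of opposite sign. Ddx5 had 479, 475 and 489.7 CPM in the PDGF-DD libraries, against 454, 452 and 434 CPM in the control libraries (log2 fold change 0.11 ± 0.04 SE, adjusted p = 0.0238 in edgeR). Ddx17 had 310.2, 301 and 297 CPM in the PDGF-DD libraries, against 322, 323 and 320.5 CPM in the control libraries (log2 fold change -0.09 ± 0.04 SE, adjusted p = 0.0678 in edgeR). Neither gene overlapped between groups, but the differences were small, and the call of Ddx5 was lost in limma (0.107), under upper-quartile scaling (0.0619), with the replicate number as a block (0.0918) and without control replicate 3 (0.108) or PDGF-DD replicate 3 (0.0841), with a lowest value of 0.00956. Under upper-quartile scaling Ddx17 passed as lower (adjusted p = 0.023, up to 0.292 under the other alternatives). The log2 ratio of Ddx5 to Ddx17 counts, which no scaling touches, was 0.63, 0.66 and 0.72 in the PDGF-DD libraries and 0.50, 0.48 and 0.44 in the control libraries, without overlap (difference 0.20; exact two-sided permutation test p = 0.1, the smallest possible, and 0.133 adjusted over 4 pairs).

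**Figure D4:**
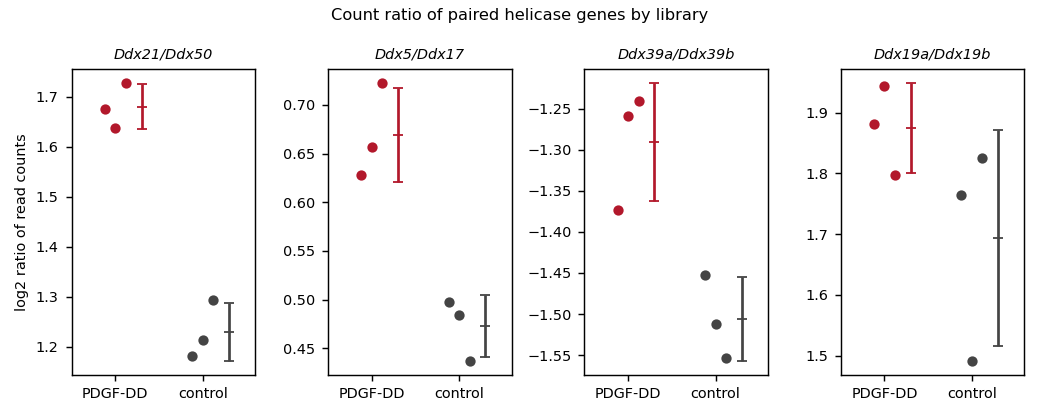
Log2 ratio of estimated counts within 4 pairs of related helicase genes, with 1 point per library (PDGF-DD left, control right) and mean ± SD beside the points (n = 3 each), each panel on its own axis. The ratios of Ddx21 to Ddx50, Ddx5 to Ddx17 and Ddx39a to Ddx39b are higher in each PDGF-DD library than in each control library, and the ratios of Ddx19a to Ddx19b overlap.

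The Ddx and Dhx helicases of translation and messenger RNA turnover showed little difference. Of 4 members 1 rose and none fell in edgeR (25% higher, against 19.1% of all tested genes), the median log2 fold change was 0.06, and no member was lower at an unadjusted p under 0.05. Their summed level was 116 ± 7.15 TPM with PDGF-DD and 116 ± 9.14 TPM in control (SD, n = 3 each). The member that rose was Dhx29, which binds the small ribosomal subunit and helps it scan structured leaders. It had 41.6, 40.4 and 44.7 CPM in the PDGF-DD libraries, against 36.6, 37.4 and 37.8 CPM in the control libraries (log2 fold change 0.18 ± 0.05 SE, adjusted p = 0.00962 in edgeR). That call was lost without PDGF-DD replicate 3 (adjusted p = 0.0652) and in limma (0.0717 and 0.0731), with a lowest value of 0.00578. Ddx6, which represses and helps decap messenger RNA in processing bodies, was the most abundant of the class, with 143, 135 and 148 CPM in the PDGF-DD libraries, against 138, 149 and 147 CPM in the control libraries and overlapping groups (log2 fold change -0.03, 95% interval -0.12 to 0.06). Dhx36, which unwinds G-quadruplexes, had 58.8, 54.5 and 58.2 CPM in the PDGF-DD libraries, against 51.5, 54.9 and 54.2 CPM in the control libraries (edgeR adjusted p = 0.142) and passed as higher without PDGF-DD replicate 2 (0.049, up to 0.414 elsewhere). Dhx34, a factor of nonsense-mediated decay, stood at 9.17 ± 0.391 TPM with PDGF-DD and 8.96 ± 1.39 TPM in control and did not pass (edgeR adjusted p = 0.849).

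Set side by side, the medians were 0.24 for the nucleolar, 0.11 for the splicing and 0.06 for the translation and turnover helicases on the log2 scale. The last class holds Ddx and Dhx genes only, without Ddx3x and Ddx3y, which were left out by name. Eif4a1, a translation factor outside it by symbol, rose by 0.27, and its relative Eif4a2 did not pass (edgeR adjusted p = 2.25e-06 and 0.667). The nucleolar median lay above the splicing median under the main settings and all 15 alternatives, and the splicing median above the translation median under all of these settings but 1, that without control replicate 3 (0.105 for splicing and 0.114 for translation). The translation median was 0.0036 without control replicate 1. Classes of 16, 13 and 4 genes that share libraries are described here by count and median only, and the differences between them were not tested. The classes were drawn up with earlier results of these data known.

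Of the 3 helicases classed here under export of messenger RNA from the nucleus 2 rose (66.7%, against 19.1% of all tested genes called higher). Each gene was put in a single class, and Ddx39b was counted with splicing only. Ddx39a, a close relative of Ddx39b, had 67.3, 74.2 and 73.5 CPM in the PDGF-DD libraries, against 57.3, 53.1 and 53.8 CPM in the control libraries (1.31-fold; log2 fold change 0.39 ± 0.05 SE, adjusted p = 7.94e-07 in edgeR). The log2 ratio of Ddx39a to Ddx39b was -1.37, -1.26 and -1.24 in the PDGF-DD libraries, against -1.45, -1.51 and -1.55 in the control libraries, higher by 0.21 with PDGF-DD (exact two-sided permutation test p = 0.1, the smallest possible, and 0.133 adjusted over 4 pairs). Ddx19a, the counterpart of yeast Dbp5 at the nuclear pore, had 69.3, 65.2 and 67.1 CPM in the PDGF-DD libraries, against 59.7, 55.7 and 60.1 CPM in the control libraries (log2 fold change 0.20 ± 0.05 SE, adjusted p = 0.00164 in edgeR). Ddx19b, its neighbour on chromosome 8, had 18.8, 17.0 and 19.3 CPM in the PDGF-DD libraries, against 17.6, 19.8 and 17.0 CPM in the control libraries (edgeR adjusted p = 0.874). The ratio of these 2 genes overlapped between the groups (difference 0.18; exact two-sided permutation test p = 0.2, and 0.2 adjusted over 4 pairs), and since they are near-identical copies their reads may be divided uncertainly between them. Such sharing by the authors' estimation shows as counts that are not whole, and 19 of the 49 members had one in at least 1 library, among them Ddx39a, Ddx19a, Ddx19b, Ddx5, Ddx50, Ddx56, Ddx27 and Ddx11. Over all genes 31.9 to 32.7% of counts within a single library were not whole, and the share in at least 1 library was not counted. The mitochondrial helicases Dhx30 and Ddx28, both known from assembly of the mitochondrial ribosome, had log2 fold changes of 0.12 and 0.11 and did not pass (edgeR adjusted p = 0.0977 and 0.359). Dhx30 had 52.0, 54.3 and 54.0 CPM in the PDGF-DD libraries, against 46.5, 47.4 and 53.9 CPM in the control libraries, where control replicate 3 alone reached the PDGF-DD values, and without that library it passed as higher (adjusted p = 0.0098, up to 0.298 elsewhere).

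Among the remaining members Dhx9, Ddx1 and Ddx11 rose. Dhx9, also called RNA helicase A, works in transcription and in resolving RNA structures and RNA-DNA hybrids. It had 201, 195 and 198 CPM in the PDGF-DD libraries, against 156, 160.4 and 156 CPM in the control libraries (1.26-fold; log2 fold change 0.33 ± 0.04 SE, adjusted p = 1.33e-07 in edgeR). Ddx1, a subunit of the transfer RNA ligase complex, had 151, 152 and 155 CPM in the PDGF-DD libraries, against 132, 131 and 132 CPM in the control libraries (log2 fold change 0.21 ± 0.04 SE, adjusted p = 7.61e-05 in edgeR), and its replicates lay within a few CPM of each other. Ddx11, in spite of its name a DNA helicase of sister chromatid cohesion, had 13.8, 10.1 and 12.1 CPM in the PDGF-DD libraries, against 9.56, 8.16 and 8.08 CPM in the control libraries, the largest fold change of any member in these settings (1.39-fold; log2 fold change 0.48 ± 0.11 SE, adjusted p = 0.00102 in edgeR) at a low level and with a wide interval (0.26 to 0.70). It stayed the largest in 11 of 15 alternatives, and Ddx21 was larger in limma at a pseudocount of 1 TPM and without PDGF-DD replicate 1, control replicate 2 or control replicate 3. Dhx32, Dhx40, Dhx57 and Ddx59 had log2 fold changes between -0.07 and 0.02 and did not pass.

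Further helicases of the same superfamily do not carry a Ddx or Dhx symbol, and 4 of 8 tested rose and none fell in edgeR (50% higher, against 19.1% of all tested genes called higher and 17.4% lower). None of them was lower in DESeq2 or limma either, and Skiv2l, with the lowest value, was not lower at an unadjusted p under 0.05. The translation factor Eif4a1 had 736, 754 and 775 CPM in the PDGF-DD libraries, against 639, 628 and 618 CPM in the control libraries (1.2-fold; log2 fold change 0.27 ± 0.04 SE, adjusted p = 2.25e-06 in edgeR). It was more abundant per length than any Ddx or Dhx gene, at 936 ± 26.1 TPM with PDGF-DD and 784 ± 13.2 TPM in control (SD, n = 3 each). Its relative Eif4a2, in contrast, had 167, 167 and 169 CPM in the PDGF-DD libraries, against 174, 171 and 167 CPM in the control libraries and overlapping groups (edgeR adjusted p = 0.667). Eif4a3, the helicase of the exon junction complex, had 105, 107 and 106 CPM in the PDGF-DD libraries, against 95.5, 86.9 and 88.3 CPM in the control libraries (log2 fold change 0.23 ± 0.04 SE, adjusted p = 0.000157 in edgeR). Mtrex, which feeds RNA to the nuclear exosome, and Ythdc2 rose by 0.14 and 0.19 (edgeR adjusted p = 0.0308 and 0.0298), calls that were lost in 8 and 9 of 15 alternatives, with adjusted p up to 0.156 and 0.149. Snrnp200, the Brr2 helicase of the spliceosome, Skiv2l of the cytoplasmic exosome and Ascc3 had log2 fold changes of 0.03, -0.06 and 0.03 and did not pass, and Tdrd9, a germ cell gene, was too low to test.

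Many helicases act only with protein partners. Of 39 tested cofactors and inhibitors 17 rose and 2 fell (43.6% higher and 5.13% lower, against 19.1% and 17.4% of all tested genes), at a list median of 0.12 on the log2 scale. When PDGF-DD replicate 3 was left out, 1 of them fell. Like the list of helicases with other names, the cofactor list was drawn up with earlier results of these data known. Gemin5 and Gemin4, which share the SMN complex with Ddx20, rose by 0.44 and 0.41 (edgeR adjusted p = 5.26e-07 and 1.36e-05). Gpatch4, of the G-patch proteins that activate DEAH-box helicases, rose by 0.48 and the cap-binding subunit Ncbp1 by 0.29 (edgeR adjusted p = 1.09e-05 and 7.73e-06). Of the 9 G-patch genes in the list 3 rose, Gpatch4, Rbm17 and Pinx1, and Gpatch2, Gpkow, Nkrf, Sugp1, Tfip11 and Zgpat did not pass. The genes that fell, both named after their values were seen, are Pdcd4, an inhibitor of eIF4A, with 13.2, 13.2 and 12.5 CPM in the PDGF-DD libraries, against 15.8, 17.6 and 17.2 CPM in the control libraries (log2 fold change -0.38 ± 0.07 SE, adjusted p = 0.000224 in edgeR), and Lsm14a, a partner of Ddx6, with 126, 126 and 123 CPM in the PDGF-DD libraries, against 135, 143 and 136 CPM in the control libraries (log2 fold change -0.14 ± 0.04 SE, adjusted p = 0.00624 in edgeR).

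Myc, whose protein binds E boxes at many genes of ribosome production, stood at 124 ± 1.79 CPM with PDGF-DD and 88.1 ± 4.00 CPM in control (SD, n = 3 each) (log2 fold change 0.50 ± 0.04 SE, adjusted p = 1.04e-09 in edgeR). The E box CACGTG, its own reverse complement, was therefore sought in the promoter windows, together with the ETS core and the GC box on both strands. The windows cover 250 bases before to 50 after each annotated start in RefSeq (GRCm38.p6), and 44 of the 49 helicase genes had at least 1. Of the 16 nucleolar genes 1 held an E box (6.25%), of 11 splicing genes 3, and of 3 translation genes none, beside 11.6% of 10570 tested genes with a window and 8.09% of all 27025 genes with a window. The nucleolar gene was Dhx33. The stretches around the E box, in capitals, are shown for the tested members that hold one, with 30 bases on either side.
Dhx33: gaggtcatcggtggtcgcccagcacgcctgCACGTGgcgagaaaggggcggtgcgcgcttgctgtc
Ddx5: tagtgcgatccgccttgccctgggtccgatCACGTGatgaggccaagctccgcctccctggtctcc
Ddx42: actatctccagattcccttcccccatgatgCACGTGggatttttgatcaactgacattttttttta
Dhx35: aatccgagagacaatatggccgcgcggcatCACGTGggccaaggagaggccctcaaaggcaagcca
Dhx40: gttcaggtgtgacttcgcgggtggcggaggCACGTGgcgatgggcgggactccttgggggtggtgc
They lie at chr11:71004432-71004497 (minus strand) for Dhx33, chr11:106788902-106788967 (minus) for Ddx5, chr11:106230488-106230553 (plus) for Ddx42, chr2:158794637-158794702 (plus) for Dhx35 and chr11:86807745-86807810 (minus) for Dhx40. The E box begins 35 bases before the annotated start that its window surrounds in Dhx33, 30 in Ddx5, 148 in Ddx42, 140 in Dhx35 and 120 in Dhx40, and Dhx35 has a second one in the same window. Ddx5 has 2 further annotated starts and Ddx42 has 1, and their windows held no E box. Of these 5 genes Dhx33, Ddx5 and Ddx42 rose, with small changes, and Dhx35 and Dhx40 did not pass. The ETS core, counted as the exact string CCGGAAG, was in 19 of 40 tested helicase genes with a window (47.5%), beside 19.4% of tested genes and 9.93% of all genes with a window. It was in 10 of 24 called members (41.7%) and in 9 of 16 members that did not pass (56.2%). The GC box was in 28 of 40 (70%), beside 68% of tested genes and 38.2% of all genes with a window. Such matches describe the letters in these windows and do not show binding.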

How the data were processed

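Gene expression was measured by RNA sequencing in 6 libraries, 3 with PDGF-DD and 3 with saline, and groups were taken from the labels. Per the deposited tables, each library has an estimated count per gene, made by the authors and not always whole (31.9 to 32.7% of the values in a library are not), together with TPM and FPKM values that the authors normalized for length and depth. FPKM was not used. The submitters' processing notes name HISAT2 2.0.4, Bowtie2 2.2.5, RSEM 1.2.12, DESeq2 1.4.5 and the mm9 build, without their roles. Which annotation, strand and read filters were used is not given in the sources used here.

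Estimated counts were rounded and tested in edgeR 4.0.16 (R 4.3.3) by the quasi-likelihood test with TMM scaling and filterByExpr, which left 13270 of 18059 genes. Adjusted p-values are Benjamini-Hochberg values over all of these, with a threshold of 0.05. CPM values use TMM factors, the SE is the absolute log2 fold change divided by the square root of the F statistic, and intervals are at 95%. The method was also run on simulated counts with independent replicates, which cannot show whether the replicates of these data are independent. DESeq2 1.42.0, limma 3.58.1 on log2(TPM + 0.1) and log2(TPM + 1), other scalings and filters, a replicate block and leaving out each library were alternatives. Pairs of genes were compared by exact permutation of libraries. Replicate pairs were checked by chi-square over genes with at least 20 counts, and no pair agreed within sampling noise.

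The helicases, their classes and the related lists were chosen with earlier results of these data known. Values by library were given, per tested class, for the most abundant member and the 4 or fewer called ones of smallest p. Outside that rule they were also given for Ddx10, Ddx17, Ddx19b, Ddx50, Ddx51, Ddx54 and Dhx36. The same holds for Eif4a1, Eif4a2, Eif4a3, Pdcd4 and Lsm14a. Myc has group means, and the other related helicases and the cofactors that rose have shorter values or none. The ETS core and GC box were added after the values were seen. Promoter sequences come from RefSeq on GRCm38.p6, not the authors' build. Figures were drawn with Python 3.11.15 and matplotlib 3.10.9.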

Additional observations from a re-analysis of the deposited data

How the results depend on the processing

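Over 15 alternatives no helicase reversed a call, and 21 of the 27 risers were called in each of them. The number of helicases called higher ran from 22 to 27. Of 585 class and list values, 560 were labelled the same. That label meant a count near the main count, or a median that moved by no more than the spread between replicates. It is a loose label, since nucleolar genes higher ran from 11 to 14 and splicing genes higher from 5 to 7 under it. Counts of 0 that stayed 0 were also among the 560. Under upper-quartile scaling 1 helicase, in the splicing class, was lower, and the median of all genes was -0.0315, beside -0.000458 under total count scaling and -0.0117 to 0.000728 with 1 library left out. Of the helicases with other names, 2 rose in DESeq2, in limma at both pseudocounts, under upper-quartile scaling and with the replicate block, and 2 to 4 with 1 library left out. Small-subunit nucleolar genes higher numbered 3 in DESeq2 and in limma at both pseudocounts, and 3 to 5 with 1 library left out. Translation helicases higher numbered 0 in limma at both pseudocounts and 0 to 2 with 1 library left out. Leaving out 1 library gave 1 to 2 cofactors lower and 0 to 1 mitochondrial helicases higher.

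Same-numbered libraries did not deviate together (r = -0.07, -0.09 and -0.03), and differently numbered libraries gave r from -0.02 to 0.08. Such values rest on 3 libraries a group and cannot show how the cultures were set up. Whether the numbers pair the libraries was not tested. With the number as a replicate block, 24 helicases were higher and 0 lower, 13 of them nucleolar, 5 splicing and 1 of translation. With 3 libraries a group, exact tests of single ratios could not go below 0.1, and the 4 members under the filter on low counts had wide intervals when tested without it.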
